A study of Mus musculus with 20 samples.

Results

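Siglecs are sialic-acid-binding lectins of the immunoglobulin superfamily, and Cmah is the hydroxylase that makes one form of sialic acid, Neu5Gc, from another, Neu5Ac. The genes described here are 6 mouse Siglec genes (Siglece, Siglecf, Siglecg, Siglec1, Cd33 and Cd22) and Cmah, 7 of the 23090 genes counted in each library. They were taken by symbol, matched to Entrez gene IDs. Cmah, Siglece and Siglecf were selected on their counts in these same data, having been noted for falls under the inhibitor, without a record of the cell type. Their contrasts, the comparisons between cell types in the same libraries included, are therefore given as a description with no p-value, while Siglecg, Siglec1, Cd33 and Cd22, included by family name, were tested.

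The libraries are poly-A RNA of myeloid cells sorted from subcutaneous tumours in female SCID.beige mice of 6 to 8 weeks, a strain that lacks T cells, B cells and functional NK cells. The tumours came from MDA.MB.231-X1.1, a subline of a human breast cancer line, or from CT26, derived from a colon carcinoma of the mouse. No library is tied to either in the labels, so a difference between tumour lines cannot be told apart from the other differences. Mice were gavaged BID over 7 days, starting once tumours averaged 150 to 200 mm3. Mice received 25 mg/kg of GNE-781, a CBP/EP300 bromodomain inhibitor (CBPi), or the vehicle MCT. The 4 groups, of 5 libraries each, are CBPi gMDSC, vehicle gMDSC, CBPi mMDSC and vehicle mMDSC. Both populations (granulocytic and monocytic myeloid-derived suppressor cells) were sorted as CD45+, CD11b+, Ly6C+ and F4/80-, with gMDSC Ly6G+ and mMDSC Ly6G-. Nothing in the labels says whether libraries of a group came from separate mice, so p-values measure the spread between these samples, which may be technical in part.

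Inhibitory Siglecs carry tyrosine motifs in their cytoplasmic tails that, once phosphorylated by Src-family kinases, recruit the phosphatases SHP-1 (Ptpn6) and SHP-2 (Ptpn11) and dampen activation when the lectin domain meets sialylated glycans. On myeloid cells they are known as receptors through which a sialic acid coat can restrain neutrophils, monocytes and macrophages. Most Siglecs bind Neu5Ac and Neu5Gc with different preference, which is how the hydroxylase encoded by Cmah shapes their ligands; the human CMAH gene is inactive.

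Siglece, Siglecf, Siglecg and Cd33 lie in one cluster on chromosome 7, and Cd22 lies elsewhere on chromosome 7. On GRCm38, the RefSeq spans were chr7:43648882-43672044 for Siglece (Entrez 83382), chr7:43351341-43359475 for Siglecf (233186), chr7:43408192-43418349 for Siglecg (243958), chr7:43527399-43537424 for Cd33 (12489) and chr7:30865404-30880342 for Cd22 (12483). Siglec1 (20612) spanned chr2:131067801-131086778 and Cmah (12763) chr13:24327404-24477289. No other gene had counts identical to a member's in all libraries. The Siglece span overlaps those of Ceacam18 and Ctu1, which reached at most 5.23 CPM and 9.62 CPM, and the Cmah span overlaps Gm11342, which was not counted. How strand was treated in counting is not given, so reads shared with these neighbours cannot be assigned.

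The 250 bases before the RefSeq start (GRCm38.p6) are shown for the 4 members whose levels moved most with cell type or inhibitor, since each is a promoter window of a gene in the results that follow. They matched for 6 of the 7 members. Siglece and Cd33 are read on the minus strand, from chr7:43660162-43660411 and chr7:43533172-43533421, windows inside the annotated gene spans. Siglecf and Cmah are read on the plus strand, from chr7:43351091-43351340 and chr13:24327154-24327403. Cmah has 2 annotated starts: the window of start 1 is shown, and that of start 2 lies at chr13:24414872-24415121. Which start these cells use was not examined. Capitals mark the letters AGGAAG (PU.1 type), TTNNGNAA (C/EBP type) and TGTGGT (RUNX type), searched on both strands, motifs named after factors of myeloid cells.
Siglece: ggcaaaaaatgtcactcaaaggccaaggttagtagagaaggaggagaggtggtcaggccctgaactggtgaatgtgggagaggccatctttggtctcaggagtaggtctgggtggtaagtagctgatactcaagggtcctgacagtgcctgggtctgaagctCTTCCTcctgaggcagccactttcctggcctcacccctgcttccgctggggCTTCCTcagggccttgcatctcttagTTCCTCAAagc
Siglecf: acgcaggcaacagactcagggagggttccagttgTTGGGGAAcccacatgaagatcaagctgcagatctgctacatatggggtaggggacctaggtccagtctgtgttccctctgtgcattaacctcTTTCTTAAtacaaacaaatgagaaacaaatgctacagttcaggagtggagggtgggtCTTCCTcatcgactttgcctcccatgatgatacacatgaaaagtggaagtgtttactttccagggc
Cd33: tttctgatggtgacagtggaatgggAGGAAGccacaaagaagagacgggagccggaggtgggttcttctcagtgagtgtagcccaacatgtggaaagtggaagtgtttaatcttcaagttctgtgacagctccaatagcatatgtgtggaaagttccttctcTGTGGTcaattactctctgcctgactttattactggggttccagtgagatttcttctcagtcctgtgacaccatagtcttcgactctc
Cmah: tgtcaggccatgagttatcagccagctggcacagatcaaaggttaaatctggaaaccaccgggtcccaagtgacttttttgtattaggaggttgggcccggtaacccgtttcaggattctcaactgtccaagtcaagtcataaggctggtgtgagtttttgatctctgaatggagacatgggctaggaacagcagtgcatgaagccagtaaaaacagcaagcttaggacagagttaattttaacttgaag
Siglece holds 2 matches to AGGAAG, at 88 and 37 bases before the start, and 1 to TTNNGNAA. Siglecf holds 1 AGGAAG and 2 TTNNGNAA, while Cd33 holds 1 AGGAAG and 1 TGTGGT. Neither Cmah window holds any of the searched letters. Over the 8 windows of the 6 matched members (2 each for Siglecg, where they overlap, and Cmah), 4 held AGGAAG, 2 TTNNGNAA and 1 TGTGGT. Of all 32851 RefSeq windows of this length, 29.5% held AGGAAG, 36.8% TTNNGNAA and 14% TGTGGT. Such matches are letters in a window, not sites shown to be bound.

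Among 26 local alignments between windows of different members, the best-scoring stretch joined Siglecf, 35 to 5 bases before its start (chr7:43351306-43351336), and Cd33, 165 to 135 bases before its start (chr7:43533306-43533336). They shared 25 of 31 bases, given in capitals with the differing bases in lower case.
Siglecf: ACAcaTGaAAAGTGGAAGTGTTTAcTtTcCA
Cd33: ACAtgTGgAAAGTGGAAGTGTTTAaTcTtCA
The stretch describes likeness between 2 genes of one family in one cluster, and its relation to their levels was not tested.

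Library totals were 12.37 to 26.64 mega-counts (M). In CBPi gMDSC they were 19.74 to 22.43 M, against 12.37 to 14.1 M in vehicle gMDSC 1 to 4 and 23.27 M in vehicle gMDSC 5. At these depths 3 counts, the limit a count of 0 allows, stand for 0.094 to 0.294 CPM (counts scaled per mega-count of the library). Summed neutrophil markers (6 genes) ran from 6906 to 13000 CPM in CBPi gMDSC and from 8599 to 33650 CPM in vehicle gMDSC, against 192 to 271 CPM in CBPi mMDSC and 266 to 305 CPM in vehicle mMDSC. Ly6g itself was low in gMDSC, at 0.531 to 2.13 CPM with CBPi and at 5.23 to 9.03 CPM in vehicle gMDSC 1 to 4, and it was 0.442 CPM in vehicle gMDSC 5. Adgre1, which encodes F4/80, was at 581 to 966 CPM in CBPi gMDSC, 615 to 1533 CPM in vehicle gMDSC, 438 to 651 CPM in CBPi mMDSC and 739 to 964 CPM in vehicle mMDSC, although both gates were set as F4/80-. Vehicle gMDSC 3 stood furthest from its group, with a median correlation of log2 CPM of 0.857 to its replicates, against 0.915 to 0.927 for the other vehicle gMDSC libraries.

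Siglece, Siglecf and Cd33 were several-fold higher in gMDSC than in mMDSC under both treatments, and Siglec1 overlapped across all 4 groups. Under CBPi, Siglece was lower in both cell types, Siglecf and Cmah were lower in gMDSC, and Cd33 rose in mMDSC. All levels in CPM were scaled by TMM over the 20 libraries, and levels of different genes are compared only per length, as RPKM, the CPM divided by the deposited width in kilobases.

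**Figure D1:**
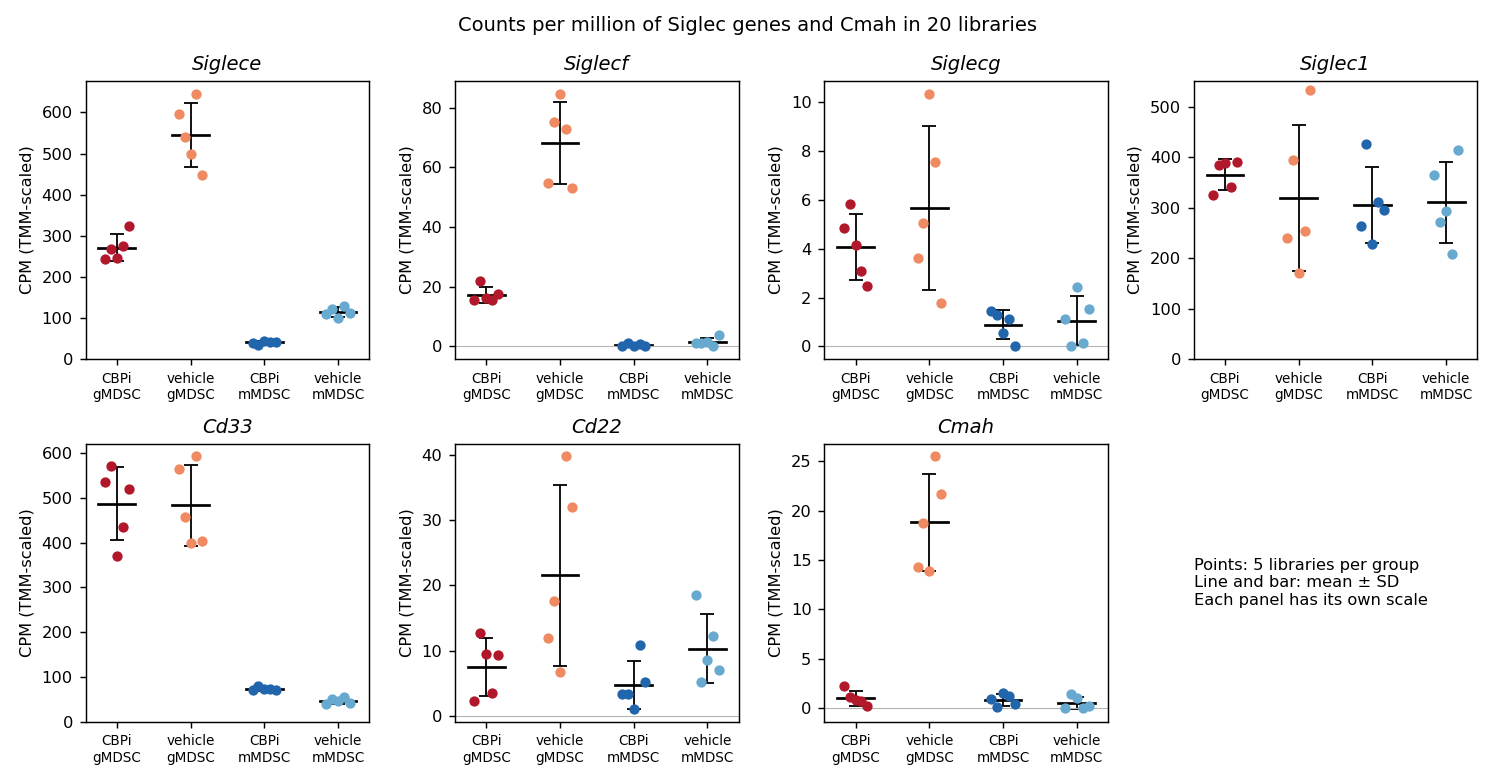
CPM (TMM-scaled, y axis, a separate scale per panel) of the 7 genes in the 20 libraries; each point is 1 library, lines are means and bars SD (n = 5). Siglece, Siglecf, Cd33 and, in vehicle, Cmah stand higher in gMDSC than in mMDSC, and the 5 CBPi gMDSC libraries lie below the 5 vehicle gMDSC libraries for Siglece, Siglecf and Cmah.

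Siglece encodes Siglec-E, an inhibitory receptor of mouse neutrophils, monocytes and macrophages. In CBPi gMDSC 6 to 10 it was at 243.9, 267.1, 245.5, 274.1 and 323.8 CPM, and in vehicle gMDSC 1 to 5 at 596.9, 539.8, 498.1, 645.8 and 447.8 CPM. Every CBPi library lay below every vehicle library. In CBPi mMDSC 6 to 10 it was at 40.0, 33.5, 44.5, 42.6 and 41.8 CPM, against 110.5, 122.1, 98.97, 129.6 and 111.6 CPM in vehicle mMDSC 1 to 5, again without overlap. The log2 fold changes of CBPi over vehicle were -0.99 ± 0.15 (SE) in gMDSC and -1.52 ± 0.12 in mMDSC, or 1.99-fold and 2.87-fold lower. Groups that do not overlap were found for 12.1% of the genes tested in gMDSC and 9.8% in mMDSC, and nothing is read from these shares for genes that had been noted for falls. The log2 response in gMDSC minus that in mMDSC was 0.47 ± 0.18. Bulk RNA cannot tell fewer cells of a type from less RNA per cell, here or for any other gene.

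Siglecf encodes Siglec-F, an inhibitory receptor best known from mouse eosinophils and also described on tumour-associated neutrophils. In CBPi gMDSC 6 to 10 it was at 15.4, 21.8, 16.2, 15.5 and 17.6 CPM, and in vehicle gMDSC 1 to 5 at 54.7, 75.3, 84.8, 72.8 and 53.1 CPM. The highest CBPi library stayed well below the lowest vehicle library. The log2 fold change was -1.97 ± 0.20, a 3.90-fold lower level with CBPi. In mMDSC the gene was near the floor: CBPi mMDSC 6 to 10 gave 0.0787, 0.924, 0, 0.690 and 0.0313 CPM and vehicle mMDSC 1 to 5 gave 1.03, 1.17, 1.35, 0.0532 and 3.75 CPM. The 0 in CBPi mMDSC 8 allows up to 0.131 CPM. These mMDSC groups overlapped, the CBPi libraries held 0 to 25 counts and the vehicle libraries 1 to 97, and the log2 fold change of -2.10 ± 1.08 had a 95% interval of -4.21 to 0.02.

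Of the 5 eosinophil markers examined, 1 of the 2 tested in gMDSC, the chemokine receptor gene Ccr3, fell with CBPi (log2 fold change -2.40 ± 0.44, edgeR adjusted p = 0.0056), to 1.77 ± 0.793 CPM in CBPi gMDSC against 9.51 ± 3.91 CPM in vehicle gMDSC (SD, n = 5 each). The other, Alox15, did not pass (1.04 ± 1.48, adjusted p = 0.704), at a mean of 1.10 CPM in CBPi gMDSC and 0.545 CPM in vehicle gMDSC. In this comparison 4.18% of all genes tested were higher and 5.52% lower. The eosinophil granule genes Prg2 and Epx were at or near 0 in gMDSC. Prg2 had no count in any CBPi or vehicle gMDSC library, and Epx had none in CBPi gMDSC and reached 0.0934 CPM in 1 vehicle gMDSC library. The summed level of the 5 markers ran from 1.11 to 5.83 CPM in CBPi gMDSC and from 6.44 to 17.9 CPM in vehicle gMDSC. Per length, Ccr3 averaged 1.64 RPKM in CBPi gMDSC and 8.81 RPKM in vehicle gMDSC, where Siglecf averaged 10.1 RPKM and 39.8 RPKM. Whether eosinophils contributed to the Siglecf values was not tested.

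Cmah, the CMP-Neu5Ac hydroxylase, was high in 1 group alone. Every vehicle gMDSC library held it well above all others, and the CBPi gMDSC libraries overlapped with those of mMDSC. CBPi gMDSC 6 to 10 gave 2.20, 1.08, 0.758, 0.642 and 0.193 CPM and vehicle gMDSC 1 to 5 gave 14.3, 18.7, 13.9, 25.5 and 21.7 CPM. Here 4 to 34 counts stood against 146 to 490 counts per library, without overlap between the groups. The log2 fold change was -4.27 ± 0.52, a 19.3-fold lower level with CBPi. In CBPi mMDSC 6 to 10 Cmah was at 0.865, 0.037, 1.48, 1.23 and 0.345 CPM, and in vehicle mMDSC 1 to 5 at 0, 1.37, 1.01, 0 and 0.155 CPM. A count of 0 in vehicle mMDSC 1 and 4 allows up to 0.148 and 0.16 CPM. The mMDSC groups overlapped, and the log2 fold change was 0.63 ± 1.10. The response in gMDSC minus that in mMDSC was -4.93 ± 1.21 on the log2 scale, given like the other values of Cmah without a test.

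Some marker genes of other cell types also differed between CBPi and vehicle gMDSC. Of 6 macrophage markers 5 did not pass, and the summed ranges of macrophage and of monocyte markers overlapped between the groups. Summed macrophage markers (6 genes, 1 of 6 lower: Vcam1) ran from 6133 to 11640 CPM in CBPi gMDSC and from 11520 to 19000 CPM in vehicle gMDSC, and summed monocyte markers (6 genes, 1 higher and 3 lower) from 1649 to 2329 CPM in CBPi gMDSC and from 1602 to 3761 CPM in vehicle gMDSC. Of 6 neutrophil markers 1, Cxcr2, passed and was lower. Among all genes tested in gMDSC, 4.18% were higher and 5.52% lower. In mMDSC, macrophage markers summed to 5659 to 7626 CPM with CBPi and 7245 to 9032 CPM with vehicle (3 of 6 lower), and monocyte markers to 2541 to 3658 CPM with CBPi and 3844 to 4866 CPM with vehicle (3 of 6 lower). Among all genes tested in mMDSC, 3.02% were higher and 5.54% lower. The part of these cell types in the values of the Siglec genes was not tested.

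Cd33 encodes a Siglec of myeloid cells whose human counterpart is inhibitory and marks myeloid-derived suppressor cells. In CBPi mMDSC 6 to 10 it was at 69.8, 80.6, 72.9, 73.7 and 70.2 CPM, against 40.5, 50.7, 45.9, 55.3 and 41.3 CPM in vehicle mMDSC 1 to 5. Each CBPi library was above each vehicle library. The gene rose by 0.63 ± 0.12 on the log2 scale (1.55-fold, edgeR adjusted p = 0.00522), and leaving out any single library kept the call (adjusted p from 0.00214 to 0.0154). In gMDSC the levels were far higher and the treatments overlapped: CBPi gMDSC 6 to 10 had 535.0, 570.6, 371.0, 435.7 and 520.2 CPM and vehicle gMDSC 1 to 5 had 564.4, 457.0, 398.8, 593.2 and 403.7 CPM. The log2 fold change there was 0.03 ± 0.17, with a 95% interval of -0.31 to 0.36 and an adjusted p of 0.943. The difference between the responses, gMDSC minus mMDSC, was -0.66 ± 0.20 and did not pass (edgeR adjusted p = 0.171, and 0.0986 to 0.369 over the alternatives).

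Of the 4 members tested for the inhibitor, Cd33 alone passed in mMDSC, 1 of 4, where 8.56% of all genes tested were called (3.02% higher and 5.54% lower). In gMDSC 0 of 4 passed, against 9.71% of all genes tested (4.18% higher and 5.52% lower), although Cd22 had an unadjusted p of 0.015. DESeq2 called 1 of the 4 in gMDSC, Cd22. For the difference between the responses 0 of 4 passed against 0.725% of all genes (0.497% higher and 0.229% lower). At an unadjusted p under 0.05 that difference held Cd33 alone, and DESeq2 also called 0 of 4. With 4 genes these counts cannot be set apart from the background.

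Setting Siglece beside Cd33, both expressed per length, gave a different ratio in CBPi and vehicle libraries. The ratio of Siglece to Cd33 RPKM was 0.465 ± 0.0799 in CBPi gMDSC and 0.931 ± 0.0634 in vehicle gMDSC, and it was 0.454 ± 0.0646 in CBPi mMDSC and 2.02 ± 0.200 in vehicle mMDSC (SD, n = 5 each). In vehicle gMDSC the levels were about equal, with ratios from 0.866 to 1.02, and in vehicle mMDSC Siglece exceeded Cd33 in every library, from 1.76 to 2.24. With CBPi, Cd33 exceeded Siglece in every library of both cell types, the ratio running from 0.373 to 0.542 in gMDSC and from 0.341 to 0.5 in mMDSC. In gMDSC the shift came with a lower Siglece and a Cd33 that did not pass the test, and in mMDSC with a lower Siglece and a higher Cd33. The ratio uses Siglece, so it is a description with no test.

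**Figure D2:**
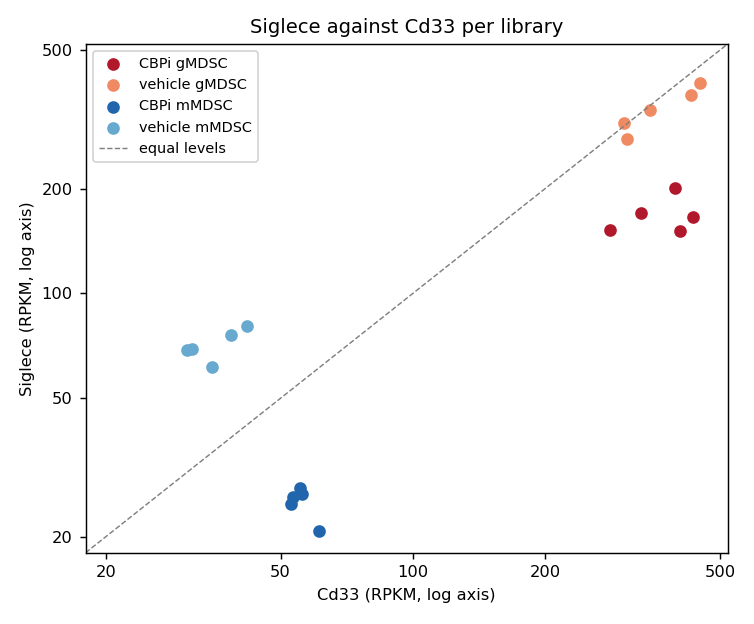
Siglece RPKM (y, log axis) against Cd33 RPKM (x, log axis) in the 20 libraries, coloured by group, with a dashed line of equal levels. All CBPi libraries lie below the line, vehicle mMDSC lie above it, and vehicle gMDSC lie along it with ratios of 0.866 to 1.02.

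Siglec1 encodes sialoadhesin (CD169), a macrophage receptor that binds sialic acid without the inhibitory tail motifs. It was at 325.5, 384.3, 388.2, 340.4 and 391.2 CPM in CBPi gMDSC 6 to 10 and at 240.9, 393.9, 171.5, 253.4 and 533.3 CPM in vehicle gMDSC 1 to 5. In CBPi mMDSC 6 to 10 it was at 264.8, 426.8, 227.5, 310.6 and 296.5 CPM, against 364.7, 272.2, 293.4, 208.6 and 414.4 CPM in vehicle mMDSC 1 to 5. All 4 groups overlapped, and vehicle gMDSC spanned the widest range. The log2 fold change with CBPi was 0.21 ± 0.26 in gMDSC (95% interval -0.30 to 0.72, adjusted p = 0.659) and -0.04 ± 0.20 in mMDSC (-0.44 to 0.35, adjusted p = 0.929).

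Cd22, an inhibitory co-receptor of the B cell receptor, was detected at low levels in all groups. In CBPi gMDSC 6 to 10 it was at 2.20, 12.7, 9.50, 3.48 and 9.31 CPM, and in vehicle gMDSC 1 to 5 at 11.9, 17.6, 6.72, 39.8 and 32.0 CPM, overlapping at vehicle gMDSC 1 and 3. The log2 fold change of -1.52 ± 0.54 did not pass (edgeR adjusted p = 0.0967), and it passed with DESeq2 (adjusted p = 0.0312) and without vehicle gMDSC 3 (adjusted p = 0.0372), the range over all alternatives being 0.0312 to 0.205. In mMDSC the CBPi libraries 6 to 10 had 3.27, 3.33, 1.05, 10.9 and 5.11 CPM and the vehicle libraries 1 to 5 had 18.6, 5.24, 8.55, 12.2 and 7.04 CPM. The log2 fold change there was -1.15 ± 0.52 (adjusted p = 0.211), and the groups overlapped.

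Cd22 and Siglecg are best known from B cells, so B cell markers are given beside them; their part in these values was not tested. Of 5 B cell markers, Pax5 had no count in any library, and 4 averaged under 1 CPM in every group. The summed level was 9.30 to 22.9 CPM in CBPi gMDSC, 10.9 to 27.9 CPM in vehicle gMDSC, 6.64 to 12.98 CPM in CBPi mMDSC and 7.34 to 18.6 CPM in vehicle mMDSC. Almost all of it was Cd79b, a chain of the B cell receptor complex, at 15.2 ± 5.45 CPM in CBPi gMDSC and 19.3 ± 5.83 CPM in vehicle gMDSC.

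Siglecg, in B cells an inhibitor of calcium signalling and in dendritic cells a partner of Cd24, had the lowest mean of the 6 Siglec members in gMDSC per length. It was at 4.85, 5.83, 4.14, 3.10 and 2.46 CPM in CBPi gMDSC 6 to 10 and at 3.63, 5.07, 10.4, 7.55 and 1.77 CPM in vehicle gMDSC 1 to 5. CBPi mMDSC 6 to 10 gave 1.46, 1.29, 0.567, 1.13 and 0 CPM, and vehicle mMDSC 1 to 5 gave 1.13, 0, 2.42, 0.16 and 1.55 CPM. Libraries at 0 allow up to 0.094 CPM in CBPi mMDSC 10 and up to 0.117 CPM in vehicle mMDSC 2. Neither inhibitor contrast passed, at -0.46 ± 0.48 in gMDSC (adjusted p = 0.588) and -0.26 ± 1.08 in mMDSC (adjusted p = 0.923), and the groups overlapped in both. The mMDSC interval, -2.36 to 1.85, leaves large changes in either direction undetectable at this depth.

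**Figure D3:**
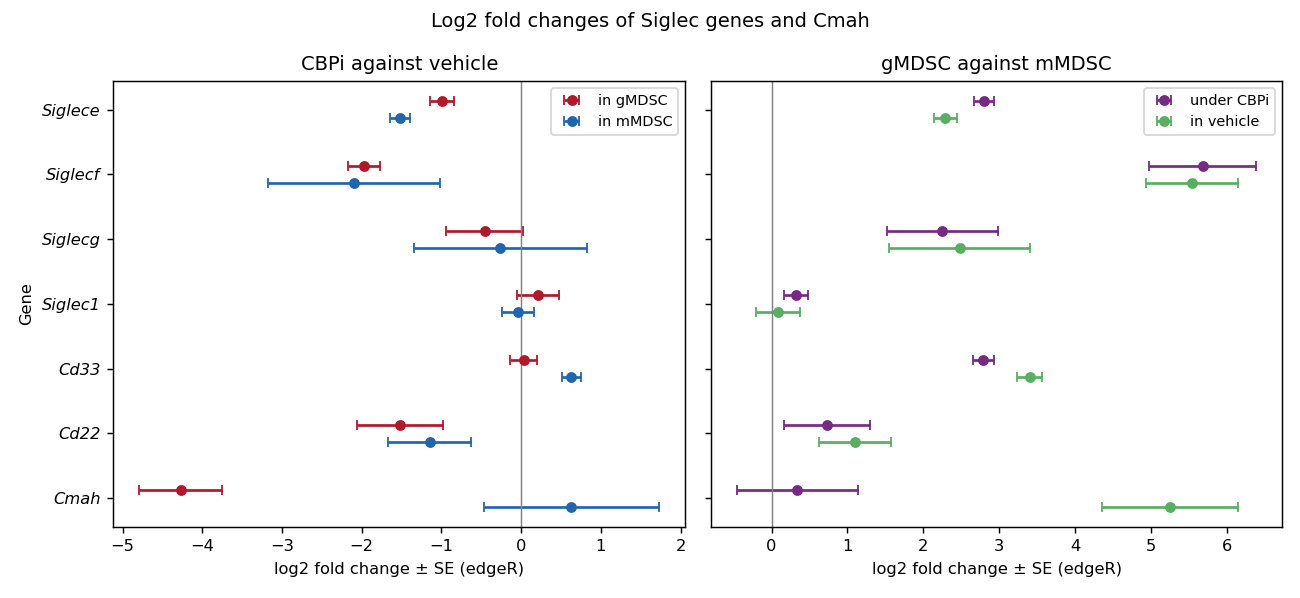
Log2 fold changes (x axis) with their standard errors for the 7 genes, CBPi against vehicle on the left (gMDSC red, mMDSC blue) and gMDSC against mMDSC on the right (CBPi purple, vehicle green). Siglece lies below 0 in both cell types, Cmah only in gMDSC, at -4.27 ± 0.52 against 0.63 ± 1.10 in mMDSC, and Siglec1 runs from -0.04 to 0.32 over the 4 comparisons.

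Between the cell types, Cd33 was the 1 of the 4 members included by family name that passed in vehicle, and Cd33 and Siglecg were the 2 of 4 that passed with CBPi, all higher in gMDSC. In vehicle, Cd33 was higher in gMDSC by 3.40 ± 0.17 on the log2 scale (10.6-fold, edgeR adjusted p = 5.48e-08). As a description with no test, the log2 fold changes of gMDSC over mMDSC in vehicle were 2.29 ± 0.15 for Siglece, 5.54 ± 0.61 for Siglecf and 5.25 ± 0.90 for Cmah, the last 2 against mMDSC libraries near the floor. For these 4 genes each vehicle gMDSC library was above each vehicle mMDSC library. Of all genes tested 21.7% were called, 13.6% higher and 8.08% lower in gMDSC, and groups did not overlap for 20.2%. Siglecg at 2.48 ± 0.93 (adjusted p = 0.0791), Cd22 at 1.10 ± 0.48 (adjusted p = 0.129) and Siglec1 at 0.08 ± 0.29 (adjusted p = 0.882) did not pass. Siglecg passed with DESeq2 (0.0217) and in a fit over all 20 libraries (0.0462), and Cd22 passed without vehicle gMDSC 3 (0.0317).

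Under CBPi the order was similar except for Cmah. Cd33 was higher in gMDSC by 2.79 ± 0.14 (6.91-fold, edgeR adjusted p = 1.61e-08). With no test, Siglece was at 2.80 ± 0.13, Siglecf, near the floor in CBPi mMDSC, at 5.68 ± 0.71 and Cmah at 0.34 ± 0.80. Siglecg also passed, at 2.25 ± 0.73 (adjusted p = 0.0259), but not in a fit over all 20 libraries (0.0614) or without CBPi gMDSC 6 (0.0504), CBPi gMDSC 7 (0.062) or CBPi mMDSC 8 (0.0563). For Cd33, Siglece, Siglecf and Siglecg the CBPi gMDSC and CBPi mMDSC libraries did not overlap. Of all genes tested, 30.2% did not overlap and 39.2% were called (20.1% higher and 19.1% lower in gMDSC). Cd22, at 0.73 ± 0.57, did not pass (adjusted p = 0.342). Siglec1 was at 0.32 ± 0.16 (adjusted p = 0.119), and it passed without CBPi mMDSC 7 (adjusted p = 0.0131).

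Per length, Cd33 led the members in gMDSC under both treatments. With CBPi its mean was 369.1 RPKM, followed by Siglece at 168.3, Siglec1 at 70.6, Siglecf at 10.1, Cd22 at 2.82, Siglecg at 1.79 and Cmah at 0.562 RPKM. Only Cd22 and Siglecg, and Siglecg and Cmah, overlapped among neighbours in this order. In vehicle gMDSC Cd33 (366.8 RPKM) and Siglece (338.9 RPKM) overlapped, ranked 434 and 467 among 23090 genes. After them came Siglec1 at 61.5 and Siglecf at 39.8 RPKM, which overlapped, then Cmah at 10.9, Cd22 at 8.18 and Siglecg at 2.50 RPKM, each overlapping with the next. In mMDSC Siglec1, Siglece and Cd33 led. CBPi mMDSC had Siglec1 at 58.9 and Cd33 at 55.7 RPKM, which overlapped, then Siglece at 25.2 RPKM, apart from both, while vehicle mMDSC had Siglece at 71.2 and Siglec1 at 59.9 RPKM, which overlapped, and Cd33 at 35.5 RPKM, which overlapped with Siglec1. Cd22 (1.79 RPKM with CBPi, 3.91 RPKM with vehicle), Siglecf, Siglecg and Cmah were the lower 4 in both mMDSC groups, and each overlapped with the next.

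The 3 other counted mouse Siglec genes, Mag, Siglech and Siglec15, showed no call in any of the 5 comparisons, with 2 of 3 tested. Mag, the myelin-associated glycoprotein, was at 14.98 ± 7.51 CPM in CBPi gMDSC and 22.1 ± 5.55 CPM in vehicle gMDSC. Siglec15 stayed under 0.2 CPM in every library.

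In the cluster from Siglecf to Siglece (chr7:43351341-43672044), 16 genes were counted, of which 12 are not members. In gMDSC, 8 of the 12 were tested for the inhibitor and 1 was lower, Etfb, a subunit of the mitochondrial electron transfer flavoprotein, at -1.02 ± 0.26 (adjusted p = 0.0279), where 9.71% of all genes were called. In mMDSC 0 of 5 were called (8.56% of all genes), and the 5 included an unadjusted p of 0.0312 for Nkg7 and 0.00639 for Zfp719. Between the cell types in vehicle, 2 of 6 were higher in gMDSC, Vsig10l and Gm2511, and under CBPi 4 of 7 were higher and 1 lower; of all genes, 13.6% were higher in vehicle and 20.1% higher and 19.1% lower under CBPi.

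The enzymes that build and remove sialic acid were examined as 3 lists of 36 genes, chosen, like the members, with earlier results of these data known. With CBPi in gMDSC, 23 were tested, 1 was higher and 2 were lower, against 4.18% higher and 5.52% lower of all genes, so the counts lie near the background. St3gal1, which sialylates O-glycans, fell by 0.88 ± 0.20 on the log2 scale (edgeR adjusted p = 0.0173), and St3gal6, which acts on type 2 chains of N- and O-glycans, fell by 0.82 ± 0.21 (adjusted p = 0.0296). Neu1, the lysosomal sialidase, rose by 0.60 ± 0.13 (adjusted p = 0.0131), to 271.7 CPM in CBPi gMDSC against 181.3 CPM in vehicle gMDSC. None of these 3, named because they passed the test, overlapped between the groups. Groups did not overlap for 12.1% of all genes tested.

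In mMDSC 26 enzymes were tested, 2 were higher and 3 lower with CBPi, against 3.02% higher and 5.54% lower of all genes. Neu1 rose here too, by 0.52 ± 0.12 (edgeR adjusted p = 0.0206), to 196.8 CPM in CBPi mMDSC against 135.6 CPM in vehicle mMDSC, while Ctsa, the lysosomal protein that stabilises Neu1, fell by 0.31 ± 0.08 (adjusted p = 0.0291). St6galnac5, a sialyltransferase of gangliosides, was at 2.12, 2.29, 1.48, 0.835 and 0.690 CPM in CBPi mMDSC 6 to 10, against 0.197, 0.117, 0, 0.0532 and 0.0774 CPM in vehicle mMDSC 1 to 5. It was higher with CBPi (adjusted p = 0.00404), but the vehicle libraries were at or near the limit that a count of 0 allows, so no fold is given. St3gal4 fell by 0.56 ± 0.13 (adjusted p = 0.0185) and St6galnac4 by 0.54 ± 0.12 (adjusted p = 0.0139). The 6 tested genes listed for sialic acid synthesis, activation and transport gave 0 calls in either cell type, with medians of -0.07 in gMDSC and -0.08 in mMDSC, against 0.00 and 0.01 for all genes.

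Between the cell types, the enzymes higher in gMDSC were sialyltransferases and Neu1. St3gal6 was at 170.2, 193.1, 121.7, 193.8 and 134.5 CPM in CBPi gMDSC 6 to 10 and at 7.08, 10.02, 15.92, 15.03 and 14.42 CPM in CBPi mMDSC 6 to 10, without overlap. Its log2 fold change of gMDSC over mMDSC was 3.76 ± 0.24 with CBPi (edgeR adjusted p = 1.09e-07) and 4.06 ± 0.27 in vehicle (adjusted p = 4.53e-07). In vehicle, 4 of 12 tested sialyltransferases (St3gal6, St3gal1, St3gal4 and St8sia4) and Neu1 were higher, and 0 of 25 enzymes were lower, against 13.6% higher and 8.08% lower of all genes. With CBPi, 5 of 11 sialyltransferases and Neu1 were higher in gMDSC, and 4 of 6 synthesis, activation and transport genes were lower: Gne, the entry enzyme of sialic acid synthesis, at -1.05 ± 0.20 (adjusted p = 0.00134), Nans at -0.62 ± 0.17 (0.0119), Slc35a1, the Golgi importer of CMP-sialic acid, at -0.72 ± 0.20 (0.0135) and Renbp at -0.43 ± 0.13 (0.019). With CBPi 20.1% of all genes were higher and 19.1% lower. The medians of the sialyltransferases were -0.07 with CBPi and -0.14 in vehicle, against -0.05 and -0.06 for all genes.

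Downstream of the receptors, 8 signalling partners were tested. Ptpn6 (SHP-1) was at 1021, 936.5, 1032, 930.9 and 897.7 CPM in CBPi gMDSC 6 to 10 and at 2042, 1764, 2091, 2163 and 1712 CPM in vehicle gMDSC 1 to 5. In CBPi mMDSC 6 to 10 it was at 657.8, 807.1, 701.8, 698.0 and 775.7 CPM, against 1381, 1285, 1207, 1055 and 1256 CPM in vehicle mMDSC 1 to 5. Neither pair of groups overlapped, and Ptpn6 fell by 1.00 ± 0.13 in gMDSC (edgeR adjusted p = 0.000646) and by 0.78 ± 0.10 in mMDSC (adjusted p = 0.000401). The adaptor gene Tyrobp (DAP12) fell in gMDSC by 1.08 ± 0.27 (adjusted p = 0.0261), and the Src-family kinase gene Fgr fell in mMDSC by 1.09 ± 0.12 (adjusted p = 0.00017). In all, 2 of 8 were lower in gMDSC and 2 of 8 in mMDSC, and 0 of 8 were higher. All genes tested gave 5.52% lower and 4.18% higher in gMDSC, and 5.54% lower and 3.02% higher in mMDSC. The medians of the 8 were -0.28 in gMDSC and -0.34 in mMDSC, against 0.00 and 0.01 for all genes. For gMDSC against mMDSC, 4 of 8 were higher in vehicle and 6 of 8 with CBPi, against 13.6% and 20.1% of all genes. Fgr led in both.

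Of 6 tested genes of proteins described as carriers of Siglec ligands, 3 were higher in gMDSC and 0 lower in vehicle, and 4 were higher and 1 lower with CBPi, against 13.6% higher and 8.08% lower in vehicle and 20.1% and 19.1% with CBPi for all genes. Cd24a, whose product binds human Siglec-10 and mouse Siglec-G, was at 102.9, 75.8, 59.8, 61.9 and 52.7 CPM in CBPi gMDSC 6 to 10 and at 0.629, 0.740, 1.79, 0.835 and 1.22 CPM in CBPi mMDSC 6 to 10. In vehicle gMDSC 1 to 5 it was at 56.9, 38.9, 54.9, 53.6 and 32.1 CPM, against 0.344, 1.09, 1.21, 1.54 and 1.32 CPM in vehicle mMDSC 1 to 5. It was higher in gMDSC by 6.14 ± 0.31 with CBPi (edgeR adjusted p = 1.68e-08) and by 5.45 ± 0.37 in vehicle (adjusted p = 6.12e-07). Selplg (PSGL-1) and Cd44 were also higher in gMDSC under both treatments, and Muc1 with CBPi (2.19 ± 0.77, adjusted p = 0.0359). Cd52 was lower in CBPi gMDSC than in CBPi mMDSC (-0.70 ± 0.19, adjusted p = 0.011), and Spn passed in neither treatment. With CBPi, Selplg fell in gMDSC by 0.89 ± 0.15 (adjusted p = 0.00375) and in mMDSC by 0.71 ± 0.11 (adjusted p = 0.00151), and Cd52 fell in gMDSC by 1.24 ± 0.26 (adjusted p = 0.0112). The ligand proteins lower with CBPi were 2 of 6 tested in gMDSC and 1 of 5 in mMDSC, against 5.52% and 5.54% of all genes. For the difference between the responses, 0 of 26 enzymes, 0 of 8 signalling partners and 0 of 6 ligand proteins were called. Of all genes tested for that difference only 0.725% were called, so these counts do not show equal responses in the 2 cell types.

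**Figure D4:**
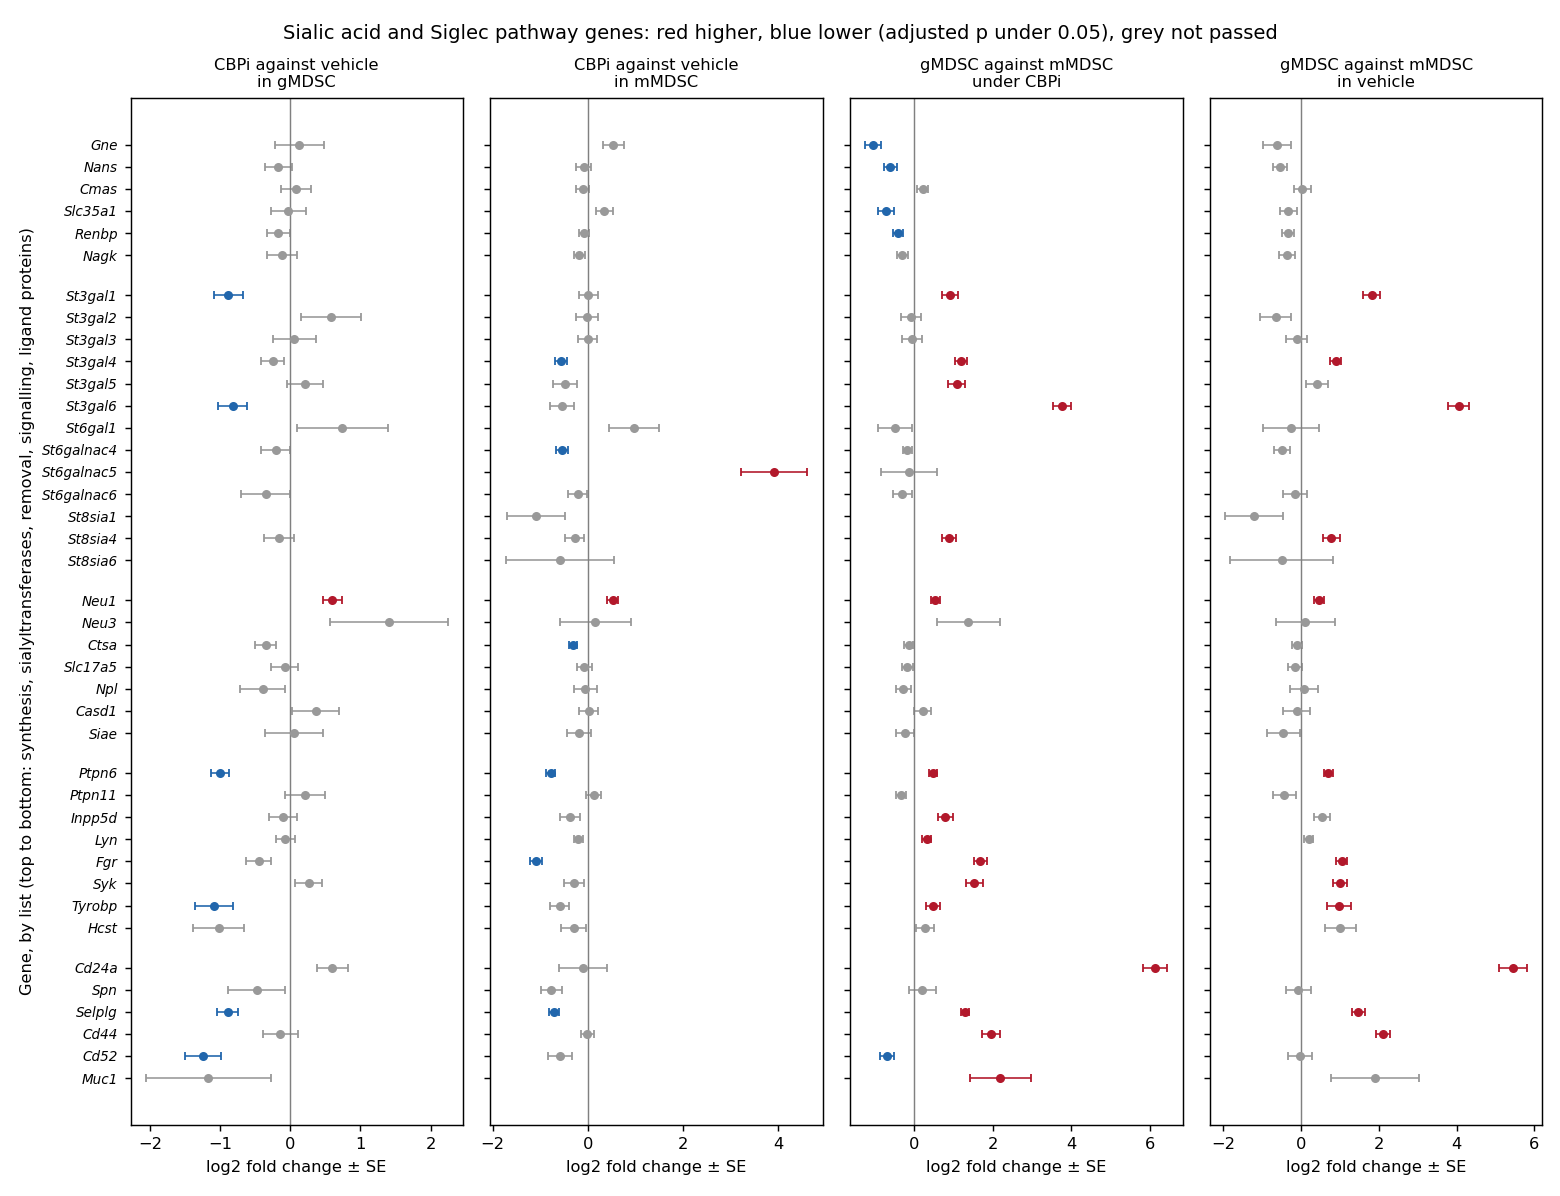
Log2 fold changes (x axis) with standard errors for the tested sialic acid enzymes, signalling partners and ligand proteins, 1 panel per comparison; red and blue points passed (adjusted p under 0.05), grey points did not. Ptpn6 and Selplg are lower with CBPi in both cell types, Neu1 is higher in both, and Cd24a and St3gal6 are far higher in gMDSC, up to 6.14 and 4.06.

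The genes whose log2 CPM was most correlated with each member over the 20 libraries were found among 12687 others. For Cd33 they were Steap4, Hdc and Csf1 (Pearson r = 0.992 each), for Siglece Cd101 (0.980), Lpcat2 (0.973) and Cadm1 (0.967), and for Siglecf Niban1 (0.961), Rcsd1 (0.959) and Mtus1 (0.958). For Cmah they were Ccm2l (0.877), Ublcp1 (0.852) and Cyb5r1 (0.850), and for Cd22 Ganc (0.819), Ermap (0.804) and E2f2 (0.789). Siglec1 was most like an Entrez ID without a symbol (0.913), Zfp740 (0.885) and Sh2b3 (0.883), and Siglecg most like another such ID (0.904), Zcchc2 (0.837) and Padi4 (0.831). The 20 points share 2 cell types and 2 treatments, and these correlations are descriptions.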

How the data were processed

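Poly-A RNA of sorted mMDSC and gMDSC was sequenced as TruSeq V2 libraries, 5 per group. Per the submitters' processing notes, reads were aligned with GSNAP to GRCm38; no version, counting tool, annotation or strand setting is given in the sources used here. The deposited counts are whole reads per gene, not normalized, for 23090 Entrez IDs, of which 21647 matched a symbol in a RefSeq table (GRCm38.p6). The deposited width of each gene was used to compute lengths, and the deposited RPKM, normalized by the authors, was not used for levels: RPKM here was recomputed from counts and widths. Totals were 12.37 to 26.64 mega-counts; limits from a count of 0 cover counting error only.

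Counts were tested with edgeR 4.0.16 (R 4.3.3): TMM, filterByExpr (minimum count 10, minimum total 15), the quasi-likelihood test and Benjamini-Hochberg adjustment over all genes tested, with a threshold of 0.05, checked on simulated data. Each 2-group comparison used its 10 libraries, the difference between responses all 20. Standard errors are the log2 fold change over the square root of F. For Siglece, Siglecf and Cmah, selected on these libraries, p-values are not printed, although a test between cell types had been planned for them. Alternatives were DESeq2 1.42.0, RLE factors, no filter, a 4-group fit, a replicate block and leaving out each library. The members and lists were chosen with earlier results of these data known. From the other sialic acid, Siglec and signalling lists, up to 4 genes per comparison with adjusted p under 0.05 and the smallest p were to be named, and the 3 genes most correlated with each member (log2 CPM, prior count 2); genes of the cluster and cell type markers named beside these were chosen after their values were seen. Each library was treated as 1 replicate. Within groups, libraries differed by more than sampling noise (the smallest chi-square per df was 20.7). Such a spread may be technical in part and does not show that the libraries came from separate mice. Promoter windows are from RefSeq, matched by symbol, and aligned with Biopython 1.88. Of the genes first listed, 2 are not reported here, and the lists were counted without them.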

Additional observations from a re-analysis of the deposited data

How the results depend on the processing

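Of 574 member values under the alternatives (35 results), 540 kept their direction and their side of the threshold. This tally covers all 7 members, and nothing is read from its threshold part for Siglece, Siglecf and Cmah, which were selected on these libraries. With no test for Siglece, Siglecf and Cmah under CBPi, their log2 fold changes in gMDSC ran from -1.07 to -0.94, -2.06 to -1.88 and -4.80 to -4, and for Siglece in mMDSC from -1.57 to -1.46. Among these values, directions turned only where the reported value was within 1 SE of 0. Leaving out each library gave, in mMDSC, -0.59 to 0.28 for Siglecg and -0.20 to 0.09 for Siglec1, and in gMDSC -0.04 to 0.11 for Cd33 (-0.01 in the 4-group fit). Between cell types it gave -0.19 to 0.21 for Siglec1 in vehicle and -0.18 to 0.70 for Cmah with CBPi, and for the difference between responses -0.58 to 0.92 for Siglecf, -0.74 to 0.13 for Siglecg and -0.70 to 0.21 for Cd22. The count of members lower in gMDSC was 1 of 4 with DESeq2 and 0 to 1 without single libraries (1 without vehicle gMDSC 3). Genes higher with CBPi in mMDSC numbered 360, and 678 with DESeq2, 165 in the 4-group fit and 221 to 448 without single libraries. In gMDSC they numbered 489 (866 with DESeq2, 872 in the 4-group fit, 229 to 658 without single libraries), and lower genes 646 (1060, 1310 and 358 to 736). Genes lower in vehicle gMDSC than in vehicle mMDSC numbered 935, and 1519 in the 4-group fit and 676 to 1521 without single libraries (1521 without vehicle gMDSC 3). For the difference between responses, 63 genes were higher (184 with DESeq2, 33 with the replicate block, 23 to 85 without single libraries) and 29 lower (93, 19 and 10 to 32). The cause of these shifts was not tested. Whether a replicate number shared by gMDSC and mMDSC stands for 1 mouse cannot be told from the counts. Over 10 pairs the correlation of deviations ran from -0.031 to 0.168, and 2 were over 0.1. Of the 10 gMDSC libraries, 3 correlated best with the mMDSC library of their own number. Weak correlations between different cell types cannot exclude a shared mouse, so the unpaired fits were set beside the replicate block. The block changed no call of Siglecg, Siglec1, Cd33 or Cd22. Depth limits Siglecf, Siglecg and Cmah in mMDSC, at 0 to 97 counts per library.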
